A study of Mus musculus with 11 samples.

Results

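The 10 genes described here are Nfe2l2, which encodes the transcription factor Nrf2, and 9 genes of the antioxidant defence that Nrf2 and glutathione carry: Nqo1, Gclm, Gclc, Srxn1, Txnrd1, Slc7a11, Prdx1, Gpx1 and Gpx4. They were taken by symbol from the 32285 genes of the deposited single-cell count tables, and all 10 were found. The tables come from the brain of 11 mice, 1 library per mouse, in 4 groups that cross genotype (WT or Lrg1-/-) with surgery (sham, or middle cerebral artery occlusion and reperfusion, MCAO/R). The sham + WT group had 3 libraries, sham + Lrg1-/- had 3, MCAO/R + WT had 2 and MCAO/R + Lrg1-/- had 3. MCAO/R closes the artery that feeds much of one hemisphere and then reopens it, and serves as a mouse model of ischemic stroke and reperfusion. The WT mice were male C57BL/6. The Lrg1-/- mice, for which the methods name both C57BL/6N and C57BL/6J, carried a conventional knockout, so Lrg1, a secreted leucine-rich glycoprotein, was missing from every cell and from before birth. The study's methods give the genotypes different suppliers and ages and name no substrain for the WT mice, so genotype and these properties cannot be told apart here. The study also lists several reperfusion times, and the labels do not say which applies to these libraries.

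Nrf2 is held at a low level in unstressed cells by Keap1, which sends it for degradation. When oxidants or electrophiles modify Keap1, Nrf2 enters the nucleus and binds antioxidant response elements in the promoters of genes that make glutathione, reduce thioredoxin and detoxify quinones. In the ischemic brain, reperfusion is known to bring a burst of oxidants, and glutathione is the main small thiol that brain cells spend on them.

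The members fill 5 roles. Nfe2l2 is the regulator (chr2:75675513-75704641, minus strand, GRCm38). Slc7a11 (chr3:49892526-50443614) is the cystine importer of system xc-, and Gclc (chr9:77754535-77794485) and Gclm (chr3:122245557-122270732) are the catalytic and modifier subunits of glutamate-cysteine ligase, the rate-limiting enzyme of glutathione synthesis. Txnrd1 (chr10:82833951-82897712) reduces cytosolic thioredoxin, Prdx1 (chr4:116685544-116700822) is a peroxidase that thioredoxin recharges, and Srxn1 (chr2:152105516-152111376) repairs over-oxidised peroxiredoxins. Nqo1 (chr8:107388225-107403206) reduces quinones. Gpx1 (chr9:108338903-108340343) and Gpx4 (chr10:80047166-80056439) are selenium-containing peroxidases that spend glutathione on hydrogen peroxide and on lipid peroxides, and Gpx4 is the enzyme that guards cells from ferroptosis.

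Antioxidant response elements are shown because they link the regulator to its targets by sequence. The RefSeq promoters of build GRCm38.p6, each from 250 bases before to 50 bases after a start site, covered 9 of the 10 members in 14 promoters, and Gclc had no entry. The core TGACNNNGC, searched on both strands, occurred in 5 of the 14 promoters of the 9 members, each in a different member, and in 12.4% of all 32851 promoters. The related form TGAGTCAGC occurred in 1 member, Srxn1, and in 0.414% of all promoters. The matches are printed with 30 bases on the strand of the gene, with the matched letters in capitals, and a match on the opposite strand reads GCNNNGTCA.
Nfe2l2, chr2:75704884-75704913: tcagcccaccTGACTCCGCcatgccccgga
Gclm, chr3:122245413-122245442: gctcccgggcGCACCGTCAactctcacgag
Srxn1, chr2:152105469-152105498: aaattcacccTGAGTCAGCggccgggcgcg
Srxn1, chr2:152105542-152105571: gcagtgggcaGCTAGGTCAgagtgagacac
Txnrd1, chr10:82859104-82859133: ctggatttttGCTTTGTCAttctgacacgg
Prdx1, chr4:116685456-116685485: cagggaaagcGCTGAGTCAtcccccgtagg
The Prdx1 window and the first Srxn1 window also hold the AP-1 motif TGACTCA, which overlaps the match and which 5.20% of all promoters hold. These letters were not found in the windows of Nqo1, Slc7a11, Gpx1 and Gpx4.

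Of 155804 deposited barcodes, 132437 passed the limits on genes, UMIs (unique molecular identifiers, 1 per captured RNA molecule) and mitochondrial share, and 124491 remained without doublets. Clusters were named from marker genes, so each cell type name stands for cells like that type, and 97193 cells fell into 16 of 19 types, with no cluster named for NK cells, dendritic cells or oligodendrocyte precursors. Total UMIs ranged from 37159497 to 171813031 per library, and median UMIs per cell were 9611 to 11504 in MCAO/R + WT but 3190 to 6456 in MCAO/R + Lrg1-/-, where 19689 of 55021 cells stayed unnamed against 940 of 21066 in MCAO/R + WT. The 3 sham + Lrg1-/- libraries and MCAO/R + Lrg1-/- replicate 1 were deposited with round numbers of barcodes (15500, 9000, 5650 and 8500), the other 7 libraries were not, and what set these numbers is not given in the sources used here. Pairs of libraries shared at most 1.15% of the smaller library's barcodes. Lrg1 itself had 0 UMIs in endothelial cells of both knockout groups, and averaged 13.1 ± 9.28 CPM (UMIs of a gene scaled to 1000000 UMIs of that cell type, SD, n = 3) in sham + WT and 488 ± 80.1 (n = 2) in MCAO/R + WT.

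RNA typical of red cells was higher in the Lrg1-/- libraries of every cell type compared, and so was RNA typical of choroid plexus outside the choroid plexus epithelial cells. The summed level of 4 haemoglobin genes, in cell types other than erythroid and endothelial cells, was 0 to 113 CPM in WT libraries (median 19.9) and 1735 to 93066 CPM in Lrg1-/- libraries (median 20446). In endothelial cells it was 396 to 1566 CPM in WT and 16665 to 24509 CPM in Lrg1-/- libraries. Even the clusters named erythroid held only 44.4 to 105807 CPM of haemoglobin RNA in WT libraries. In sham + WT replicate 1 they held 36 haemoglobin UMIs, against 29315 in endothelial cells. Scaled to the haemoglobin of another cell type, such a profile removes mostly RNA other than haemoglobin. Calls that end or turn sign with each library's erythroid profile subtracted therefore do not measure the part of red cell RNA. The summed level of 5 choroid plexus genes (Ttr, Enpp2, Folr1, Kl and Clic6) in microglia averaged 414 CPM in sham + WT, 3827 in sham + Lrg1-/-, 193 in MCAO/R + WT and 3066 in MCAO/R + Lrg1-/-. The genotype comparisons were refitted with each of these profiles subtracted. The part of this RNA in the differences between genotypes was not tested.

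In the sham + WT brain the levels of the members differed between cell types. Nfe2l2 led in neutrophils (546 CPM, 1 library) and border-associated macrophages, the macrophages of the meninges and vessel sheaths (477 ± 45.9 CPM, SD, n = 3), followed by microglia (272 ± 20.3) and endothelial cells (146 ± 2.87). It was lowest in neuronal lineage cells at 36.8 ± 10.9 CPM. The ranges of neighbours from endothelial cells down to ependymal cells overlapped, while those of the first 4 types did not.

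The glutathione synthesis genes followed another order. Slc7a11 stood at 840 ± 289 CPM in fibroblasts (n = 2), 489 in neutrophils (1 library) and 358 ± 58.4 in astrocytes (n = 3), and at 24.2 ± 26.8 CPM or less in the other 11 types. Gclm was highest in ependymal cells (153 ± 16.8 CPM) and oligodendrocytes (151 ± 4.91), whose ranges overlapped, and was 23.5 ± 1.37 in microglia. Gclc was highest in ependymal cells at 290 ± 12.6 CPM, and the next type, fibroblasts, gave 276 ± 321 CPM over 2 libraries that disagreed with each other.

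Among the thioredoxin genes, Txnrd1 was highest in microglia (235 ± 18.8 CPM) and low in oligodendrocytes (31.7 ± 3.25), whose range overlapped those of astrocytes (from 27.8 CPM) and B cells (from 20.9 CPM). The microglial range did not overlap that of the next type, neuronal lineage cells (143 ± 12.9). Prdx1 went the other way, with 735 ± 159 CPM in choroid plexus epithelial cells and 734 ± 25.6 in oligodendrocytes, whose ranges overlapped, and 164 ± 22.2 CPM in microglia, within whose range lay the 1 neutrophil library (166 CPM), the T cell range (169 to 183 CPM) and part of the B cell range (135 to 221 CPM). Srxn1 was low everywhere, from 18.3 ± 9.80 CPM in border-associated macrophages to 0 in B cells and neutrophils. Nqo1 was highest in choroid plexus epithelial cells at 49.5 ± 5.82 CPM, without overlap with the next type, and stood at 0.425 ± 0.0621 CPM in microglia.

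The glutathione peroxidases were split between cell types. Gpx1 led in neutrophils (718 CPM, 1 library) and border-associated macrophages (643 ± 34.1) and was low in oligodendrocytes (31.0 ± 3.43) and astrocytes (35.7), whose ranges overlapped. Gpx4 led in choroid plexus epithelial cells (1394 ± 204 CPM), followed by ependymal cells (595 ± 38.3) and oligodendrocytes (591 ± 20.9), whose ranges overlapped, and was 136 ± 3.94 CPM in microglia. Microglia thus held the highest Txnrd1 beside low Prdx1 and Gpx4, and oligodendrocytes low Txnrd1 beside high Prdx1 and Gpx4.

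**Figure D1:**
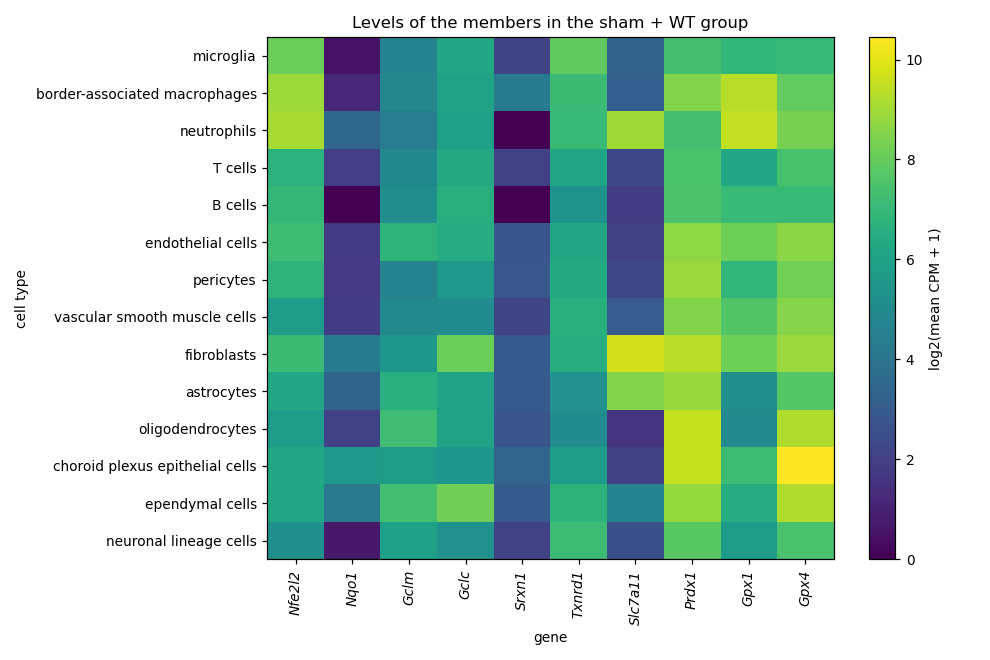
Levels of the 10 members in the sham + WT group, as log2(mean CPM + 1) for each gene (horizontal axis) in each cell type (vertical axis), means over up to 3 libraries. Gpx4 in choroid plexus epithelial cells (1394 CPM) and Slc7a11 in fibroblasts (840 CPM) are among the brightest cells, and Nqo1 is near 0 in microglia and B cells.

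Over the 14 cell types with sham + WT libraries, the members did not share one pattern. On log2(CPM + 1) the Pearson correlation was 0.80 for Nqo1 with Gpx4, 0.80 for Prdx1 with Gpx4 and 0.78 for Nfe2l2 with Gpx1, and it was lowest for Nfe2l2 with Gclm at -0.55. Among 14979 genes that reached 10 CPM in at least 1 type, the 2 closest to Nfe2l2 were Dhx58 (r = 0.943) and Fes (0.937), and those closest to Slc7a11 were Hgf (0.917) and Papss2 (0.874). For Gclm they were Epb41l4a (0.941) and S100a16 (0.931), for Gclc Krt19 (0.887) and Lpar3 (0.846), for Txnrd1 Eid3 (0.876) and Egr1 (0.859), and for Srxn1 Ppt2 (0.876) and Wdsub1 (0.873). For Prdx1 they were S100a1 (0.917) and Arl2 (0.912), for Gpx1 Osgin1 (0.897) and Trib1 (0.846), for Gpx4 Coa6 (0.917) and Slc4a2 (0.911), and for Nqo1 Dcaf12l1 (0.877) and Tvp23b (0.874). The 14 points of each correlation share libraries and depth, so these values are descriptions.

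After cerebral ischemia and reperfusion in WT mice most member calls were rises, with 8 in microglia, 8 in endothelial cells, 6 in border-associated macrophages, 4 in oligodendrocytes and 1 each in pericytes and smooth muscle cells. Raw UMIs were summed per library and cell type and compared by edgeR's quasi-likelihood test, and a gene was called when its Benjamini-Hochberg adjusted p over all genes tested in the type was below 0.05 and its natural-log fold change exceeded 0.25. Of 116 tests of members over 12 cell types, 28 were called higher and 3 lower after MCAO/R, against backgrounds of 4.52% higher and 4.39% lower over all genes and types. The median log2 fold change of the members was 0.45. Gclm, Gclc and Txnrd1 had positive log2 fold changes in 12 of 12 types each, and Slc7a11 and Gclm were called in 5 types each. Cell types share mice here and below, so counts over types are not independent. The share of all genes with the same sign in every type was not computed. In Lrg1-/- mice the same surgery gave 18 calls higher and 1 lower among 121 tests over 13 types, against 5.07% and 4.11% of all genes, with a median of 0.49. Over all contrasts 95 member tests were called, and the calls depended on the processing. With each library's own erythroid profile subtracted (the erythroid subtraction) 24 of the 95 stayed called, with cells thinned to 1000 UMIs 42 of 88, with cells named one by one from their own markers 73, and with the choroid plexus profile subtracted 79. Of the 71 calls that ended under the erythroid subtraction, 52 kept their direction with a log2 change at least as large, and all 71 had a larger standard error, with a median of 1.01 against 0.20 before. That subtraction left edgeR with 0 genes of any kind called in 22 of the 49 fits of a cell type in the 4 comparisons, and 33 of the 71 calls that ended lie in those fits. In endothelial cells 0 of all 16223 genes tested were called in each comparison, with 301 to 591 unadjusted p values below 0.05, and DESeq2 was not run on these sums.

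In WT microglia, the resident macrophages of the brain, 8 of 10 members rose after MCAO/R and none fell, where 11.8% of all genes tested in microglia were called higher. Slc7a11 stood at 10.9, 9.42 and 7.33 CPM (here and in all comparisons on TMM-scaled library sizes) in the sham + WT libraries and at 273 and 85.6 CPM in the MCAO/R + WT libraries. The groups lay far apart, although the MCAO/R libraries also differed widely from each other, and the fitted change was 19.5-fold (log2 4.28 ± 0.42 SE, adjusted p = 1.66e-05). Srxn1 rose from 4.51, 3.59 and 2.47 CPM to 29.6 and 13.2 CPM (log2 2.60 ± 0.34, adjusted p = 1.44e-04). Nfe2l2 itself rose from 278, 313 and 266 CPM to 638 and 566 CPM (1.07 ± 0.13, adjusted p = 6.50e-05). Both genes were without overlap between the groups, and so were the remaining members called. In this comparison 30 of the 31 member calls were without overlap, so here and below lack of overlap adds no separate support to a call. Its share over all genes was not computed.

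Peroxide-removing and glutathione-making genes of WT microglia rose as well. Gpx1 went from 133, 126 and 123 CPM to 297 and 263 CPM (log2 1.14 ± 0.15, adjusted p = 2.04e-04). Txnrd1 went from 268, 237 and 234 CPM to 371 and 436 CPM (0.71 ± 0.15, adjusted p = 0.00378). Smaller or less certain rises were those of Gclm (0.80 ± 0.19, adjusted p = 0.00919), Gclc (0.76 ± 0.17, 0.00593) and Prdx1 (0.78 ± 0.22, 0.0236). These calls ended without MCAO/R + WT replicate 1, where Gclm gave 0.59 (adjusted p = 0.105), Gclc 0.64 (0.0556) and Prdx1 0.38 (0.354), and that of Prdx1 also ended without sham + WT replicate 2 (0.74, 0.0649) or replicate 3 (0.70, 0.0931) and with each library's erythroid profile subtracted (-0.04). Naming cells one by one ended the calls of Gclm (0.49, adjusted p = 0.0532), Gclc (0.36, 0.217) and Txnrd1 (0.48, 0.0624), thinning those of Gclm (0.59) and Prdx1 (0.62), and the erythroid subtraction that of Gclm (0.24, 0.798). Leaving out MCAO/R + WT replicate 1 moved Slc7a11 to 3.22 and Srxn1 to 1.90, and both stayed called. Nqo1 and Gpx4 were not called, and Gpx4 stood at 146, 146 and 137 CPM in sham + WT and 146 and 180 CPM in MCAO/R + WT.

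Microglia of Lrg1-/- mice rose in 7 of 10 members after MCAO/R, where 21.3% of all genes tested were called higher. Slc7a11 went from 28.0, 11.1 and 25.6 CPM in sham + Lrg1-/- to 108, 146 and 123 CPM in MCAO/R + Lrg1-/-, without overlap (5.87-fold, log2 2.55 ± 0.40, adjusted p = 3.20e-04). Srxn1 went from 12.6, 8.05 and 8.27 CPM to 24.1, 40.6 and 39.1 CPM (1.83 ± 0.34, adjusted p = 9.53e-04). Nfe2l2 went from 227, 233 and 231 CPM to 390, 478 and 427 CPM (0.91 ± 0.12, adjusted p = 1.04e-04). The regulator, the cystine importer and sulfiredoxin were called higher after surgery in microglia of both genotypes.

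Prdx1 and Gpx1 also rose in these knockout microglia. Prdx1 went from 172, 147 and 171 CPM to 287, 487 and 416 CPM (log2 1.28 ± 0.21, adjusted p = 4.22e-04), and Gpx1 from 98.4, 96.5 and 119 CPM to 215, 302 and 304 CPM (1.39 ± 0.15, adjusted p = 4.22e-05). Gclm rose by 0.96 ± 0.19 (adjusted p = 0.00130). Gpx4 rose by 0.37 ± 0.12 (adjusted p = 0.0325), a call that ended without any 1 of 5 libraries: MCAO/R + Lrg1-/- replicate 2 (0.33) or 5 (0.29), sham + Lrg1-/- replicate 2 (0.30) or 5 (0.36), or sham + WT replicate 2 (0.32). It also ended with cells named one by one (0.02, adjusted p = 0.908), thinning (0.35), no filter on low counts (0.36) and DESeq2 (0.26). The erythroid subtraction ended the calls of Gpx4 (0.43, adjusted p = 0.834), Prdx1 (1.31, 0.609) and Gclm (1.0, 0.0740) in these cells. The response differed between genotypes in 0 of 10 members in microglia by edgeR, with 2 unadjusted p values below 0.05, and DESeq2 called 1.

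The microglia of the sham and MCAO/R groups lay mostly in different clusters. Cluster 2 held 90.4% of sham + WT and 77.2% of sham + Lrg1-/- microglia, and cluster 0 held 93.1% of MCAO/R + WT and 98.0% of MCAO/R + Lrg1-/- microglia. Within cluster 0 of WT mice, where 7.83% of all genes tested were called in either direction, Slc7a11 was called (log2 2.34 ± 0.40, adjusted p = 0.00345) and no other member was, with Nfe2l2 at 0.45 ± 0.17 and Srxn1 at 0.51 ± 0.33. Within cluster 2, where 22.4% of all genes were, 6 of 9 members were called in WT mice, among them Slc7a11 (1.69 ± 0.28), Srxn1 (1.83 ± 0.39) and Txnrd1 (1.01 ± 0.16). In Lrg1-/- mice Slc7a11 was called in cluster 0 (1.63 ± 0.39, adjusted p = 0.0127) and gave -0.04 ± 0.45 in cluster 2, where only 2.03% of the MCAO/R + Lrg1-/- microglia lay. Nfe2l2 there gave -0.11 ± 0.13 in cluster 2 and 0.79 ± 0.16, called, in cluster 0, and Gpx4 gave -0.19 ± 0.15 in cluster 0. In cluster 2 the difference between genotypes in the response to surgery was called in 9.71% of all genes, among them Slc7a11 (-1.73 ± 0.51, adjusted p = 0.0382), Gclc (-1.06 ± 0.22, 0.00607) and Nfe2l2 (-0.71 ± 0.18, 0.0201), and in cluster 0 edgeR called it for 0 of 9 members, with 0 unadjusted p values below 0.05, and for 0.393% of all genes.

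**Figure D2:**
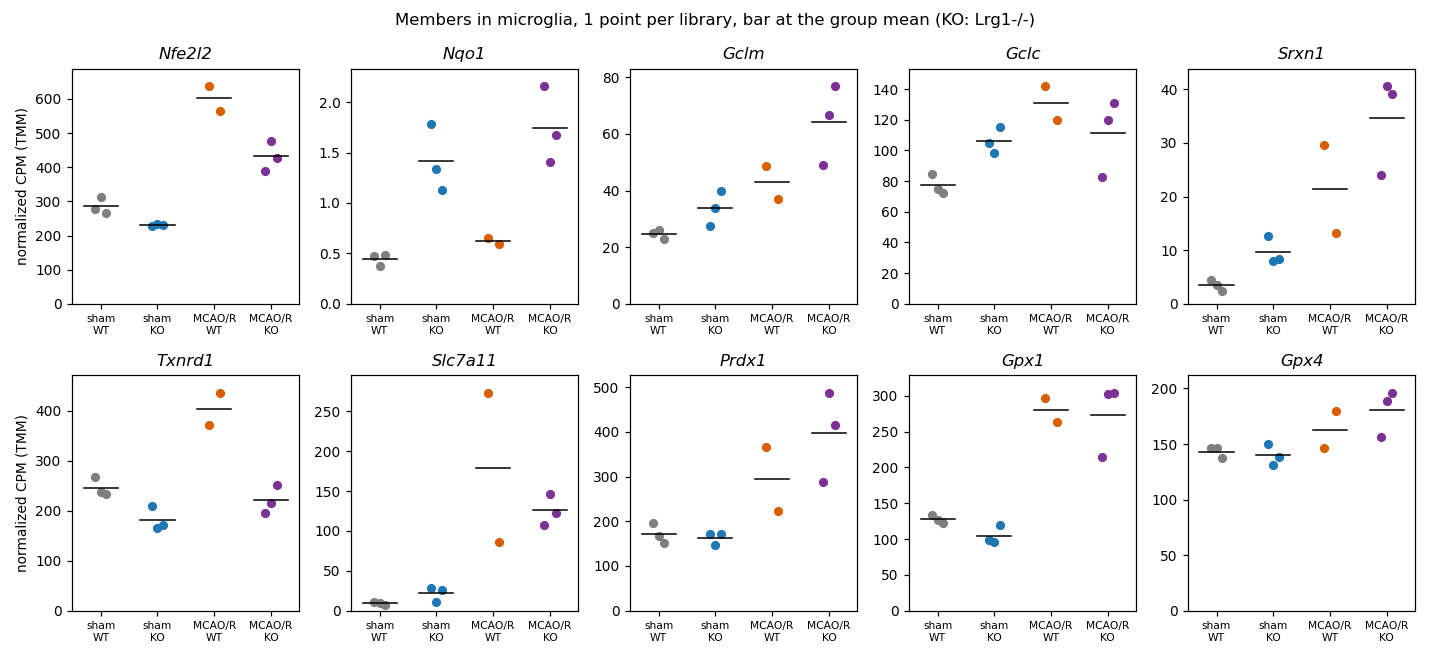
TMM-scaled CPM of each member in microglia (vertical axes, from 0), 1 point per library, in the 4 groups (horizontal axes), with a bar at the group mean. Slc7a11 is between 7.33 and 28.0 CPM in the 6 sham libraries and between 85.6 and 273 CPM in the 5 MCAO/R libraries.

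In endothelial cells, which line the vessels and form the blood-brain barrier, 8 members rose in WT mice after MCAO/R and Gpx4 fell, where 9.72% of all genes tested were called higher. Slc7a11 went from 2.20, 3.38 and 3.18 CPM in sham + WT to 32.7 and 11.1 CPM in MCAO/R + WT (log2 2.90 ± 0.45, adjusted p = 6.28e-04). With each library left out in turn its log2 change was 1.90 to 3.47. Gclc went from 93.5, 72.2 and 95.2 CPM to 195 and 165 CPM (1.05 ± 0.20, adjusted p = 0.00236). Gpx4 fell from 410, 379 and 398 CPM to 236 and 298 CPM (-0.57 ± 0.11, adjusted p = 0.00295). The cystine importer and the ligase that uses cysteine were thus higher, and the lipid peroxidase lower, in both MCAO/R libraries than in all 3 sham libraries.

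Gpx1 rose in WT endothelial cells from 313, 262 and 267 CPM to 414 and 410 CPM (log2 0.55 ± 0.13, adjusted p = 0.00735). The other rises, of Nqo1 (1.20 ± 0.30), Srxn1 (0.87 ± 0.23), Txnrd1 (0.57 ± 0.15), Gclm (0.47 ± 0.14) and Nfe2l2 (0.40 ± 0.12), had adjusted p between 0.0133 and 0.0288. All 5 calls ended without MCAO/R + WT replicate 1, where the values were 0.66 (adjusted p = 0.270), 0.44 (0.329), 0.33 (0.253), 0.34 (0.272) and 0.27 (0.290). Those of Srxn1 and Txnrd1 also ended without sham + WT replicate 2 (0.77 and 0.51), those of Gclm and Nfe2l2 without any 1 of the sham + WT libraries (0.42 to 0.49 and 0.39 to 0.41), and that of Gclm without sham + Lrg1-/- replicate 1 (0.46). That MCAO/R + WT library held the higher value of all 8 genes that rose.

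In Lrg1-/- endothelial cells the surgery raised 4 members, where 12% of all genes tested were called higher. Slc7a11 went from 5.83, 2.38 and 3.20 CPM to 7.94, 21.1 and 17.1 CPM (log2 2.06 ± 0.48, adjusted p = 0.00896), and Prdx1 from 402, 419 and 400 CPM to 467, 708 and 595 CPM (0.54 ± 0.13, adjusted p = 0.00957). Srxn1 rose by 0.99 and Txnrd1 by 0.45. Gpx4 fell as in WT mice, from 483, 489 and 496 CPM to 348, 309 and 337 CPM (-0.56 ± 0.10, adjusted p = 0.00189). Without MCAO/R + Lrg1-/- replicate 2 the calls of Slc7a11 (1.70, adjusted p = 0.0618), Srxn1 (0.79, 0.0654) and Txnrd1 (0.28, 0.167) ended, that of Slc7a11 also without sham + Lrg1-/- replicate 2 (1.74, 0.0542), and that of Txnrd1 without any sham + Lrg1-/- library (0.44 to 0.48). All 5 calls in Lrg1-/- endothelial cells ended under the erythroid subtraction (adjusted p = 1.0 each), at 0.41 to 1.94 for the genes that rose and -0.62 for Gpx4, and those of Srxn1 (1.23) and Slc7a11 (2.08) ended with thinning.

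Cluster 5 held 94.1% of sham + WT and 88.5% of sham + Lrg1-/- endothelial cells, and cluster 4 held 97.4% of MCAO/R + WT and 93.5% of MCAO/R + Lrg1-/- ones. In WT mice Gclc was called higher within both (log2 1.31 ± 0.23 in cluster 4, 1.01 ± 0.31 in cluster 5) and Gpx4 lower within both (-0.57 ± 0.13 and -0.76 ± 0.12). In Lrg1-/- mice Gpx4 was also lower within both (-0.71 ± 0.12 and -0.45 ± 0.10). Slc7a11 was called in neither cluster, at 1.05 ± 0.56 and 1.94 ± 0.80 in WT mice. Nqo1 and Gpx1 were also called in neither, at 0.17 ± 0.41 and 0.22 ± 0.14 in cluster 4 and with the opposite sign in cluster 5 (-0.95 ± 1.19 and -0.28 ± 0.16). Each of the 9 calls in WT endothelial cells ended under the erythroid subtraction (adjusted p = 1.0 each), where Nqo1 (-0.40) and Gpx4 (0.30) turned sign and the other 7 genes gave 0.90 to 2.36. Thinning ended the calls of Nqo1 (0.84) and Srxn1 (0.75).

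**Figure D3:**
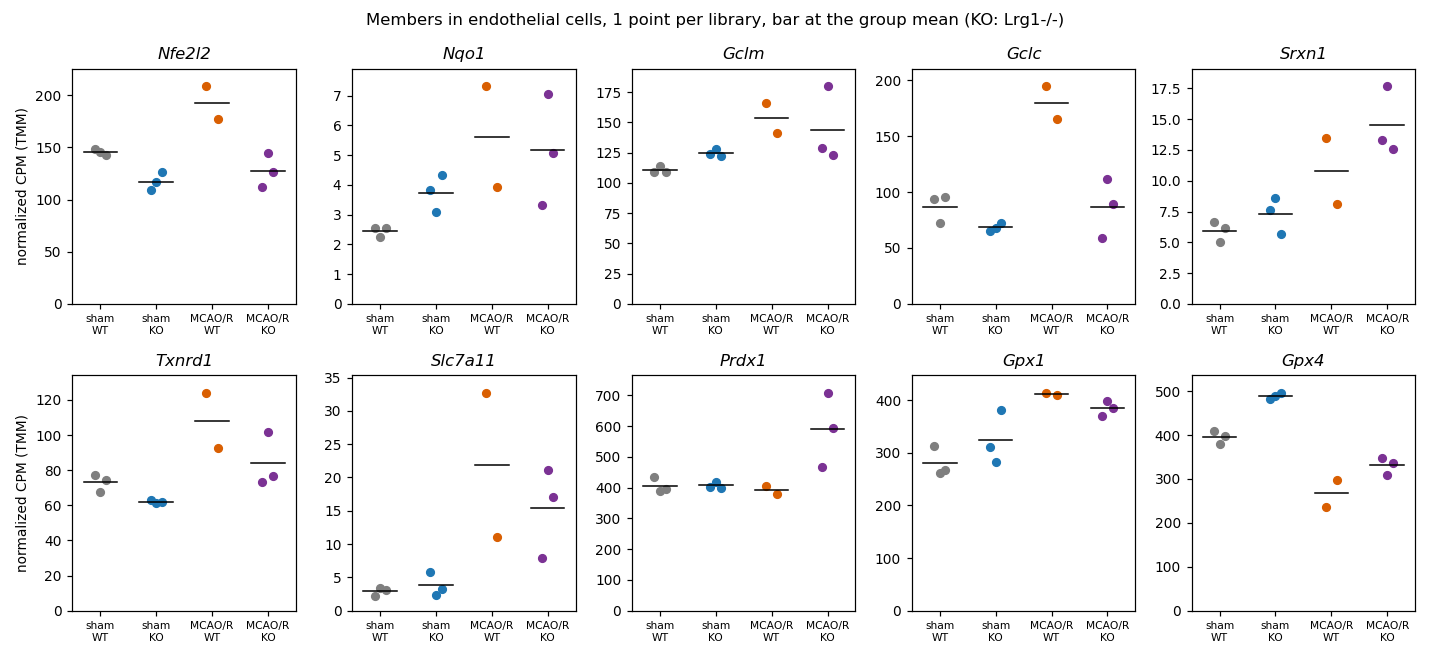
TMM-scaled CPM of each member in endothelial cells (vertical axes, from 0), 1 point per library, in the 4 groups (horizontal axes), with a bar at the group mean. Gpx4 is between 379 and 496 CPM in the 6 sham libraries and between 236 and 348 CPM in the 5 MCAO/R libraries.

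Border-associated macrophages of WT mice rose in 6 members after MCAO/R, where 5.92% of all genes tested were called higher. Gclm went from 23.7, 38.4 and 22.5 CPM to 112 and 116 CPM (log2 2.02 ± 0.29, adjusted p = 4.28e-04), and Txnrd1 from 133, 170 and 119 CPM to 285 and 260 CPM (0.96 ± 0.18, adjusted p = 0.00313). Slc7a11 went from 7.33, 11.2 and 4.71 CPM to 76.0 and 18.2 CPM (2.65 ± 0.49, adjusted p = 0.00275). The MCAO/R libraries were close to each other for Gclm and far apart for Slc7a11, whose call ended without MCAO/R + WT replicate 1 (1.21, adjusted p = 0.157). Gclc rose by 1.17 ± 0.28 (adjusted p = 0.0123), Srxn1 by 1.31 ± 0.37 (0.0354) and Prdx1 by 0.67 ± 0.19 (0.0337). These ended without MCAO/R + WT replicate 1 (0.87, 0.76 and 0.54) and without sham + WT replicate 3 (0.98, 1.0 and 0.59), Srxn1 and Prdx1 also without sham + WT replicate 1 (1.20 and 0.70), and Prdx1 also without sham + WT replicate 2 (0.72) or sham + Lrg1-/- replicate 1 or 2 (0.67 each). All 6 calls ended under the erythroid subtraction (0.40 to 2.94, adjusted p = 0.0557 to 0.653), those of Srxn1, Txnrd1, Slc7a11 and Prdx1 with cells named one by one (0.59 to 2.41), that of Gclc with thinning (0.69) and that of Srxn1 with doublets kept (1.30). Nfe2l2 was not called in this type, at 429, 515 and 518 CPM in sham + WT and 408 and 520 CPM in MCAO/R + WT. In Lrg1-/- mice, with 2 libraries of this type in each group, Prdx1 was the member called, from 451 and 494 CPM to 821 and 1276 CPM (1.14 ± 0.22, adjusted p = 0.00645), and the call ended under the erythroid subtraction (1.12, 0.256) and with thinning (0.95, 0.0576).

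Oligodendrocytes, the myelin-forming cells, rose in 4 members and fell in 2 in WT mice after MCAO/R. In this type 9.16% of all genes tested were called higher, and over all cell types 4.39% were called lower. Prdx1 fell from 730, 727 and 772 CPM in sham + WT to 391 and 379 CPM in MCAO/R + WT (log2 -0.95 ± 0.12, adjusted p = 1.33e-04). Gpx1 rose from 34.4, 28.8 and 30.9 CPM to 55.3 and 54.3 CPM (0.80 ± 0.18, adjusted p = 0.00669). Both calls held without each library in turn. Within cluster 7 both were called (Prdx1 -0.90 ± 0.11, Gpx1 1.01 ± 0.11), while within cluster 6 Prdx1 was called (-1.06 ± 0.24) and Gpx1 turned to -0.28 ± 0.33, not called. Both calls ended with each library's erythroid profile subtracted (Prdx1 -1.93, adjusted p = 0.579, Gpx1 1.55, 0.736), and that of Gpx1 ended when cells were thinned to 1000 UMIs (0.65, 0.0848).

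The other calls in WT oligodendrocytes were less stable. Gpx4 fell from 608, 603 and 584 CPM to 421 and 419 CPM (log2 -0.51 ± 0.12, adjusted p = 0.00861), and the call ended without MCAO/R + WT replicate 1 (-0.48, 0.0897) or 2 (-0.47, 0.0979). Srxn1 went from 5.79, 5.47 and 6.36 CPM to 87.6 and 5.52 CPM (2.97 ± 0.83, adjusted p = 0.0230). That change rests on MCAO/R + WT replicate 1, without which it was -0.06 (adjusted p = 0.973), and it also ended without any 1 sham + WT library (2.96 to 3.07). Slc7a11 rose by 2.28 ± 0.66 (adjusted p = 0.0278) with values of 17.0 and 3.87 CPM in the MCAO/R libraries, and gave 0.91 (0.439) without MCAO/R + WT replicate 1 and 2.14 to 2.48, not called, without any 1 sham + WT library. Gclm rose by 0.40 ± 0.11 (adjusted p = 0.0195), and the call ended without either MCAO/R + WT library (0.42 and 0.44) or without sham + WT replicate 1 (0.40). The erythroid subtraction ended the WT calls of Srxn1 (3.24) and Slc7a11 (1.98), thinning those of Srxn1 (2.24), Slc7a11 (2.53) and Gpx4 (-0.39), and naming cells one by one that of Srxn1 (1.53). In Lrg1-/- oligodendrocytes Gpx1 rose from 57.7, 53.5 and 62.8 CPM to 72.5, 117 and 124 CPM (0.88 ± 0.18, adjusted p = 0.00839), a call that ended under the erythroid subtraction (0.62, 0.986) and with thinning (0.91, 0.0574). Txnrd1 rose there by 0.63, a call that ended without any 1 of 9 libraries (0.32 to 0.63), under the erythroid subtraction (0.58), with thinning (0.35) and with cells named one by one (0.46).

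The cystine importer was called in further cell types. In WT pericytes, the contractile cells of capillaries, Slc7a11 went from 3.85, 1.44 and 5.62 CPM to 18.7 and 34.0 CPM (log2 2.86 ± 0.47, adjusted p = 5.65e-04). The call held without each library in turn and ended under the erythroid subtraction (3.12, adjusted p = 1.0), where edgeR called 0 of 10545 genes in these cells and 457 had an unadjusted p below 0.05. In Lrg1-/- choroid plexus epithelial cells it went from 3.10, 2.31 and 2.10 CPM to 6.91, 11.7 and 14.9 CPM (2.06 ± 0.34, adjusted p = 0.00425), which also held without each library in turn and ended under the erythroid subtraction (2.07, 0.464). In astrocytes, where it was already high, it was not called: 323, 427 and 319 CPM in sham + WT and 425 and 206 CPM in MCAO/R + WT. In neutrophils it stood at 474 CPM in the 1 sham + WT library and at 2049 and 899 CPM in MCAO/R + WT, and at 752 CPM in the 1 sham + Lrg1-/- library and 1739 and 1590 CPM in MCAO/R + Lrg1-/-. Neither neutrophil difference was called (log2 1.64 ± 0.57 and 1.15 ± 0.54). With 1 sham library per genotype, the spread within the sham groups was not measured, so the missing calls show little.

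In astrocytes of Lrg1-/- mice, cells that supply neurons with glutathione precursors, Srxn1, Gclm and Gclc rose after MCAO/R, where 0.312% of all genes tested were called higher. Srxn1 went from 4.75, 3.65 and 8.23 CPM to 91.9, 45.1 and 46.5 CPM (log2 3.53 ± 0.67, adjusted p = 0.0448), Gclm from 55.4, 49.3 and 41.1 CPM to 109, 209 and 133 CPM (1.62 ± 0.28, adjusted p = 0.0358), and Gclc from 44.3, 65.7 and 54.9 CPM to 136, 101 and 107 CPM (1.06 ± 0.21, adjusted p = 0.0484). The groups did not overlap for any of the 3 genes. The calls lie near the threshold and ended without any 1 of 9 libraries for Srxn1 (3.13 to 3.86) and Gclc (0.94 to 1.27), and without any 1 of 7 for Gclm (1.34 to 1.77). All 3 calls also ended under the erythroid subtraction (log2 1.18 to 3.61, adjusted p = 0.125 to 0.158), where edgeR called 0 of 11607 genes and 1292 had an unadjusted p below 0.05, and with thinning (adjusted p = 0.241 to 0.529), those of Srxn1 (3.52) and Gclc (1.05) with a limit of 10% mitochondrial UMIs, and that of Gclc with the choroid plexus profile subtracted (1.05, 0.0590). In WT astrocytes, where 1.54% of all genes were called higher, edgeR and DESeq2 called 0 of 10 members, 5 of them with an unadjusted p below 0.05, and Gclm stood at 81.8, 92.8 and 102 CPM in sham and 188 and 125 CPM after MCAO/R. The difference in response between genotypes was not called for these genes. In vascular smooth muscle cells of WT mice Gclm rose from 30.8, 33.8 and 22.7 CPM to 55.3 and 58.7 CPM (0.97 ± 0.23, adjusted p = 0.0477), and the call ended without any 1 of 8 libraries (0.82 to 1.10), with any of the 3 profiles subtracted, with thinning, with cells named one by one and with a limit of 10% mitochondrial UMIs (0.81 to 1.43).

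**Figure D4:**
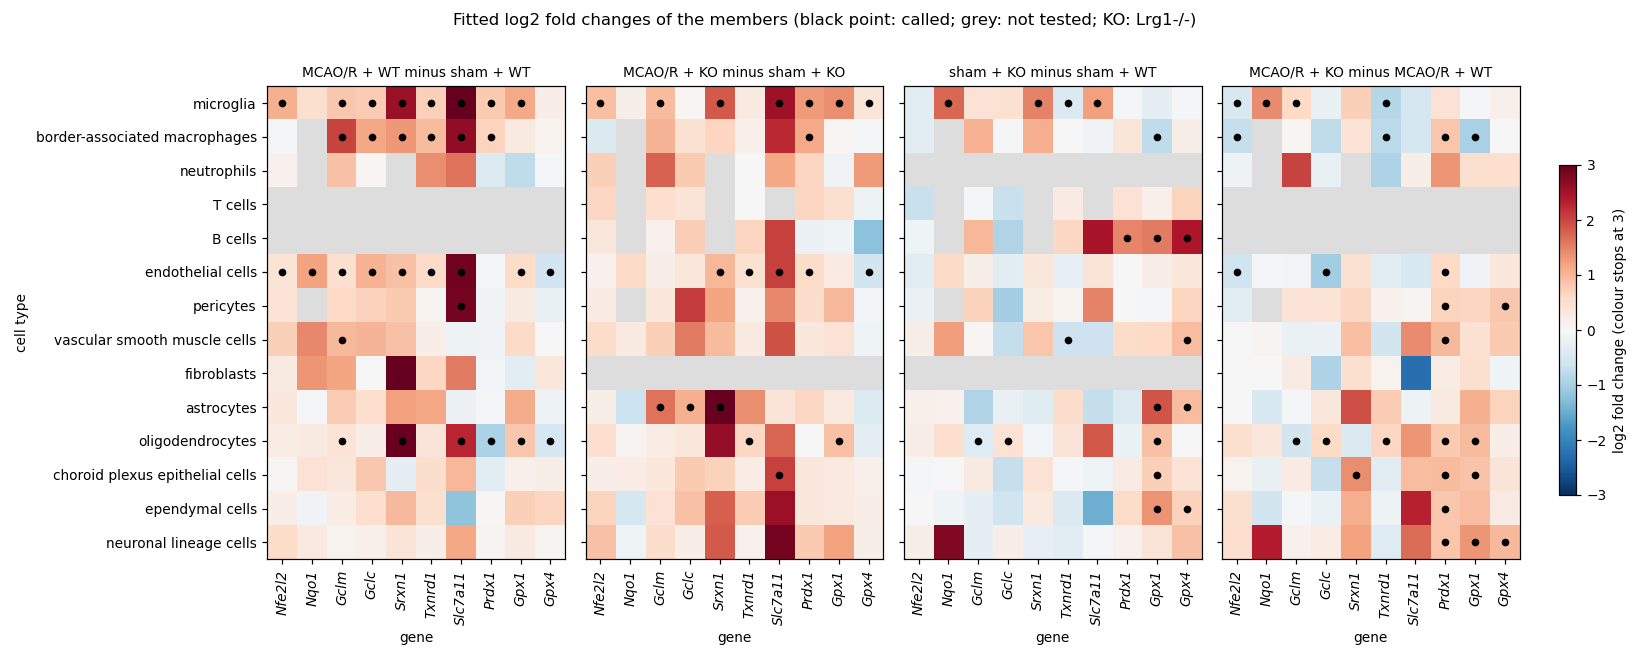
Fitted log2 fold changes of each member (horizontal axes) in each cell type (vertical axes) in 4 comparisons, 1 panel each, with a black point where a change was called and grey where it was not tested. Slc7a11 in WT microglia (4.28) has the largest called value in the comparison of MCAO/R with sham in WT mice, and Prdx1 carries a black point in 8 cell types in the comparison of genotypes after MCAO/R.

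After sham surgery the genotypes differed in 18 of 113 tests of members, 14 higher and 4 lower in Lrg1-/- mice, against 6.13% and 5.75% of all genes. The median log2 difference was 0.17. Most of the higher calls were of the glutathione peroxidases, with Gpx1 called higher in 5 of 12 types and Gpx4 in 4 of 12. Gpx1 was called lower in border-associated macrophages. Under the erythroid subtraction 3 member calls were made after sham surgery, all in B cells, where 13.4% of all genes were called in that fit. Endothelial, smooth muscle and ependymal cells then had 0 genes called by edgeR, with 585, 3054 and 2623 unadjusted p values below 0.05, and border-associated macrophages 2 of 10824. With thinning 4 member calls were made.

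In astrocytes, where 4.43% of all genes tested were called higher after sham surgery, Gpx1 stood at 42.7, 33.3 and 30.5 CPM in sham + WT and at 88.7, 111 and 206 CPM in sham + Lrg1-/- (log2 1.89 ± 0.40, adjusted p = 0.0152), and Gpx4 at 190, 197 and 222 CPM against 461, 237 and 453 CPM (0.92 ± 0.23, adjusted p = 0.0364). Choroid plexus genes summed to 510 to 690 CPM in the WT and 9528 to 36602 CPM in the knockout astrocytes, and haemoglobin to 31.5 to 46.7 against 18731 to 55266 CPM. With each library's choroid plexus profile subtracted, the Gpx4 difference in astrocytes was 0.04 (adjusted p = 0.957). The Gpx1 call in astrocytes stayed under that subtraction and ended without sham + Lrg1-/- replicate 5 (1.43, adjusted p = 0.0787) or sham + WT replicate 2 (1.85, 0.0723) or 3 (1.80, 0.0655). The Gpx4 call ended without any 1 of 6 libraries (0.70 to 0.98). Thinning ended both astrocyte calls, at 1.48 (adjusted p = 0.235) for Gpx1 and 0.40 (0.703) for Gpx4, and Gpx4 also ended with cells named one by one (0.59).

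In oligodendrocytes Gpx1 stood at 34.4, 28.8 and 30.9 CPM in sham + WT and at 57.7, 53.5 and 62.8 CPM in sham + Lrg1-/- (log2 0.88 ± 0.18, adjusted p = 0.00981). The call held without each library in turn, and ended with the choroid plexus profile subtracted (0.66, adjusted p = 0.0729), the erythroid subtraction (2.20, 0.585) and thinning (0.81, 0.122). Gclc was also called higher (log2 0.44) and Gclm lower (-0.39) in sham + Lrg1-/- oligodendrocytes. The Gclc call ended without any 1 of 3 libraries, that of Gclm without any 1 of 8, and both under the erythroid subtraction (0.46 and -0.43). Choroid plexus epithelial cells, where the choroid plexus subtraction does not apply, held 160, 121 and 134 CPM of Gpx1 in sham + WT and 206, 195 and 280 CPM in sham + Lrg1-/- (0.72 ± 0.17, adjusted p = 0.0114), a call that ended without sham + WT replicate 2 (0.63, 0.0703), with thinning (0.45, 0.265) and with a limit of 10% mitochondrial UMIs (0.43, 0.173). In B cells, where 11.2% of all genes were called higher, Gpx4 stood at 112, 136 and 143 CPM against 487 and 925 CPM (2.43 ± 0.35, adjusted p = 0.00251) and held without each library in turn, but gave 1.10 (0.154) with cells named one by one, and choroid plexus genes there summed to 321 to 618 CPM against 20147 to 48685 CPM. Prdx1 (1.47) and Gpx1 (1.55) were also called higher in B cells. Without any 1 of 3 libraries the Prdx1 call ended, and without any 1 of 4 that of Gpx1. Under the choroid plexus subtraction the B cell calls of Gpx4 and Gpx1 stayed and that of Prdx1 ended (1.27, adjusted p = 0.0620). Ependymal cells gave Gpx1 differences of 1.35 and Gpx4 of 0.69, and smooth muscle cells a Gpx4 difference of 0.93, and under the choroid plexus subtraction these were 1.26 (adjusted p = 0.0847), 0.40 (0.359) and 0.67 (0.0565). With 1 library left out in turn they were 0.89 to 1.55, 0.57 to 0.78 and 0.80 to 1.03. The calls ended in 4, 8 and 7 of these omissions.

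Border-associated macrophages went the other way in Gpx1, which stood at 678, 664 and 627 CPM in sham + WT and at 338 and 434 CPM in sham + Lrg1-/- (log2 -0.77 ± 0.17, adjusted p = 0.0344). After MCAO/R it stood at 732 and 853 CPM in WT and at 403 and 400 CPM in Lrg1-/- mice (-0.98 ± 0.18, adjusted p = 0.00453). The genotypes did not overlap after either surgery. The sham call ended without any 1 of the 5 libraries compared (-0.67 to -0.99), with thinning (-0.47) and with at least 50 cells per library (-0.97), and that after MCAO/R without MCAO/R + Lrg1-/- replicate 2 (-1.0, adjusted p = 0.0710) and with cells named one by one (-0.42, 0.0905).

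In sham microglia 4 of 10 members were called, where 22.9% of all genes tested were called in either direction. Nqo1 was at the bottom of its range, 0.477, 0.375 and 0.483 CPM in sham + WT and 1.78, 1.34 and 1.13 CPM in sham + Lrg1-/- (log2 1.72 ± 0.37, adjusted p = 0.00538), which rests on 49 UMIs in WT and 22 UMIs in knockout libraries. With the choroid plexus profile, the type with the highest Nqo1, subtracted it was 1.23 (adjusted p = 0.10). Srxn1 stood at 4.51, 3.59 and 2.47 CPM against 12.6, 8.05 and 8.27 CPM (1.48 ± 0.35, adjusted p = 0.00889), and gave 1.21 (0.0745) without sham + Lrg1-/- replicate 1. Slc7a11 was higher by 1.22 ± 0.40 (adjusted p = 0.0416) and Txnrd1 lower (268, 237 and 234 against 210, 165 and 172 CPM, -0.43 ± 0.13, adjusted p = 0.0328). Each of these last calls ended without any 1 of 5 sham libraries, with Slc7a11 at 0.92 to 1.35 and Txnrd1 at -0.34 to -0.48. Thinning ended the calls of Srxn1 (1.19), Slc7a11 (1.25) and Txnrd1 (-0.34), and none of the 4 stayed under the erythroid subtraction (1.41 for Nqo1, 1.92 for Srxn1, 1.25 for Slc7a11 and -0.50 for Txnrd1).

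After MCAO/R the genotypes differed in 26 of 116 tests of members, 18 higher and 8 lower in Lrg1-/- mice, against 8.30% and 7.18% of all genes. The median log2 difference was 0.25. Prdx1 was the member called in the most types, higher in 8 of 12 and with a positive log2 difference in 12 of 12 (0.22 to 1.33, median 0.80). The types come from the same mice, so these counts are not independent. The share of lower calls among the members was no larger than that over all genes. Nfe2l2 was called lower in 3 types and Txnrd1 in 2, all of them immune or endothelial cells, and Txnrd1 was called higher in oligodendrocytes. Slc7a11 was called in 0 of 12 types by edgeR, with log2 differences from -2.26 to 2.31, 3 unadjusted p values below 0.05, and 1 call by DESeq2.

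Prdx1 was higher after MCAO/R in Lrg1-/- oligodendrocytes, at 599, 697 and 689 CPM against 391 and 379 CPM in WT (log2 0.78 ± 0.12, adjusted p = 0.001). In choroid plexus epithelial cells, where 15.8% of all genes tested were called higher, it stood at 1000, 1048 and 1159 CPM against 617 and 496 CPM (0.94 ± 0.21, adjusted p = 0.00464), and in neuronal lineage cells at 386, 414 and 409 CPM against 211 and 244 CPM (0.83 ± 0.15, adjusted p = 0.00988). The lowest knockout library was above the highest WT library in each of these types. In endothelial cells Prdx1 stood at 467, 708 and 595 CPM against 404 and 380 CPM (0.59 ± 0.14, adjusted p = 0.00938), and vascular smooth muscle cells held 766, 572 and 544 CPM against 350 and 288 CPM (0.98 ± 0.20, adjusted p = 0.0254).

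Ependymal cells (725, 771 and 778 CPM against 472 and 385 CPM) and border-associated macrophages (821 and 1276 against 622 and 542 CPM) also showed Prdx1 values without overlap between genotypes. In pericytes the call was made (log2 0.66 ± 0.21, adjusted p = 0.0377) although the groups overlapped, at 447, 817 and 692 CPM against 465 and 385 CPM. Of the 8 Prdx1 calls, that in oligodendrocytes held without each library in turn. The others ended without MCAO/R + WT replicate 2, with endothelial cells then at 0.55 (adjusted p = 0.0674), choroid plexus at 0.83 (0.0593), neuronal lineage at 0.91 (0.0776), smooth muscle at 0.84 (0.216), border-associated macrophages at 0.72 (0.113), ependymal cells at 0.68 (0.303) and pericytes at 0.51 (0.247). Neuronal lineage (0.69), smooth muscle (1.10) and ependymal cells (0.97) also lost the Prdx1 call without MCAO/R + WT replicate 1, border-associated macrophages (0.48) and ependymal cells (0.81) without MCAO/R + Lrg1-/- replicate 5, ependymal cells (0.82) without sham + WT replicate 2, and pericytes without any 1 of 8 libraries (0.39 to 0.65). With the choroid plexus profile subtracted, the Prdx1 calls in pericytes (0.61, adjusted p = 0.0600) and ependymal cells (0.74, 0.0833) ended and 5 stayed, and in choroid plexus cells that subtraction does not apply. The profile of cells with over 80% haemoglobin (the haemoglobin-rich profile) held 113 CPM of Prdx1 and 537 CPM of Gpx1 beside 834498 CPM of haemoglobin. All 8 Prdx1 calls stayed with it subtracted, but scaled to haemoglobin it removes little Prdx1 and could hardly end a call. With each library's own erythroid profile subtracted, 7 of the 8 ended (log2 1.27 to 2.08, adjusted p = 0.106 to 0.986) and that in choroid plexus stayed. In 5 of the 7 types, endothelial cells, pericytes, smooth muscle, ependymal and neuronal lineage cells, edgeR then called 0 genes of any kind, with 301, 1302, 2172, 2107 and 1734 unadjusted p values below 0.05. Thinning ended the Prdx1 calls in choroid plexus (0.29, adjusted p = 0.562), border-associated macrophages (0.42, 0.391), smooth muscle (0.71), neuronal lineage (0.88) and ependymal cells (0.93). The choroid plexus call also ended with a limit of 10% mitochondrial UMIs (0.40, adjusted p = 0.404) or at least 50 cells (0.83), that in border-associated macrophages with at least 50 cells (0.50), that in pericytes without a filter on low counts (0.54) and that in neuronal lineage cells with cells named one by one (0.63).

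**Figure D5:**
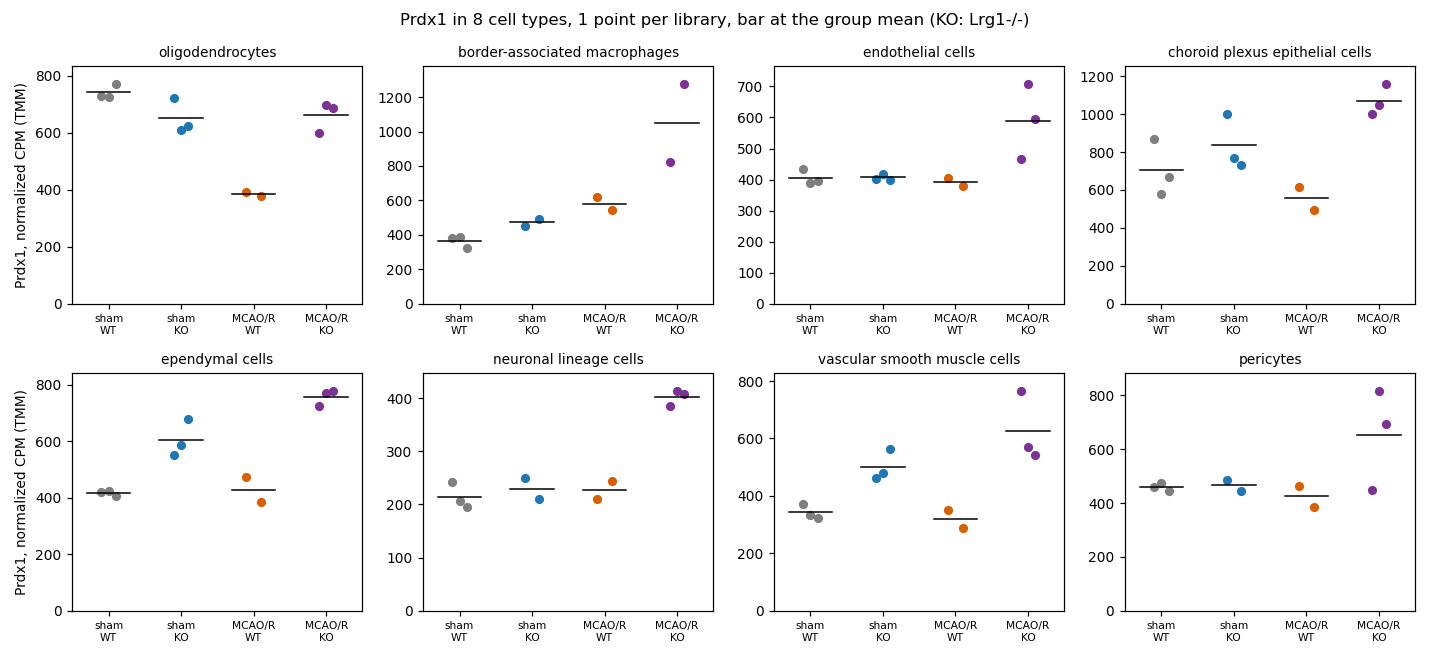
TMM-scaled CPM of Prdx1 (vertical axes, from 0) in the 8 cell types called between genotypes after MCAO/R, 1 point per library, in the 4 groups (horizontal axes), with a bar at the group mean. In oligodendrocytes the 2 MCAO/R + WT libraries (391 and 379 CPM) lie below all others, of which the lowest is 599 CPM.

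The glutathione peroxidases of Lrg1-/- mice were also higher in some neural types after MCAO/R. Gpx1 in oligodendrocytes stood at 72.5, 117 and 124 CPM against 55.3 and 54.3 CPM in WT (log2 0.95 ± 0.18, adjusted p = 0.00351), in a type where 14.9% of all genes were called higher and where Gclc (121, 111 and 108 against 69.4 and 79.4 CPM), Txnrd1 and Prdx1 were called higher too. Gpx1 in neuronal lineage cells stood at 166, 154 and 161 CPM against 59.2 and 67.3 CPM (1.33 ± 0.19, adjusted p = 0.00338) and in choroid plexus at 323, 252 and 260 CPM against 163 and 143 CPM (0.86 ± 0.20, adjusted p = 0.00705). The groups did not overlap in any of the 3 types. Haemoglobin genes summed to 11058 to 30357 CPM in the knockout oligodendrocytes and 19.9 to 20.1 CPM in the WT ones, and the 3 Gpx1 calls stayed with the haemoglobin-rich profile subtracted. With each library's own erythroid profile subtracted, Gpx1 gave 1.27 (adjusted p = 0.712) in oligodendrocytes and 1.54 (0.591) in neuronal lineage cells, not called, and stayed called in choroid plexus. With thinning Gpx1 gave 0.13 (adjusted p = 0.938) in choroid plexus and 0.77 (0.251) in neuronal lineage cells, and in choroid plexus it also ended with a limit of 10% mitochondrial UMIs (0.40, 0.430) or at least 50 cells (0.81). Without MCAO/R + WT replicate 1 the neuronal value was 1.21 (adjusted p = 0.0506), and without MCAO/R + WT replicate 2 the choroid plexus value was 0.81 (0.0617). Gclc in oligodendrocytes gave 0.47 (0.0519) without MCAO/R + WT replicate 1, and Txnrd1 there (0.61 ± 0.18) ended without either MCAO/R + WT library (0.63 and 0.50), MCAO/R + Lrg1-/- replicate 5 (0.30) or sham + WT replicate 3 (0.58), with doublets kept (0.23), with cells named one by one (0.39), with thinning (0.53) and under the erythroid subtraction (1.61).

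Gpx4 was higher in Lrg1-/- pericytes (390, 480 and 433 against 281 and 228 CPM, log2 0.80 ± 0.19, adjusted p = 0.00824) and neuronal lineage cells (510, 307 and 264 against 168 and 191 CPM, 0.97 ± 0.23, adjusted p = 0.0277). Groups did not overlap in either type. The pericyte call ended without MCAO/R + Lrg1-/- replicate 2 (0.66) or MCAO/R + WT replicate 2 (0.63), and the neuronal one without either MCAO/R + WT library (0.85 and 1.05) or sham + WT replicate 2 (0.96), and under the choroid plexus subtraction (0.48, adjusted p = 0.107), thinning (0.93) and cell by cell naming (0.55). Under the erythroid subtraction Gpx4 gave 1.20 (adjusted p = 0.240) in pericytes and 1.54 (0.324) in neuronal lineage cells. Srxn1 was higher in choroid plexus epithelial cells, at 16.7, 20.3 and 21.8 CPM against 7.81 and 6.57 CPM (1.40 ± 0.36, adjusted p = 0.0103), and ended without either MCAO/R + WT library (1.62 and 1.36), with a limit of 10% mitochondrial UMIs (0.88, 0.345) and with at least 50 cells (1.36). Gclm went the other way in oligodendrocytes, at 122, 135 and 151 CPM against 203 and 201 CPM (-0.56 ± 0.11, adjusted p = 0.00358), and that call held without each library in turn. Lower Gclm (-0.39) and higher Gclc (0.44) were also called in Lrg1-/- oligodendrocytes after sham surgery.

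Oligodendrocytes of the genotypes came from different clusters. Cluster 7, with a median of 13730 UMIs per cell, held 85.7% of MCAO/R + WT but 23.2% of MCAO/R + Lrg1-/- oligodendrocytes, and cluster 6, with a median of 2966 UMIs, held the remainder. Within cluster 7, where 25.4% of all genes tested were called in either direction, Prdx1 was higher in Lrg1-/- mice by 1.06 ± 0.12 (adjusted p = 1.16e-05), Gpx4 by 0.59 ± 0.11 (0.00101), Gclc by 0.45 ± 0.11 (0.00670) and Txnrd1 by 0.37 ± 0.12 (0.0312), while Gpx1 (0.36 ± 0.12) and Gclm (-0.23 ± 0.12) were not called. Within cluster 6 edgeR called 4.15% of all genes and 0 of 9 members, 4 of them with an unadjusted p below 0.05, and Prdx1 stood at 0.78 ± 0.24 and Gpx1 at 1.21 ± 0.33.

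After MCAO/R the regulator Nfe2l2 was called lower in microglia, border-associated macrophages and endothelial cells of Lrg1-/- mice, and its thioredoxin reductase target Txnrd1 in microglia and border-associated macrophages. In microglia, where 21.0% of all genes tested were called in either direction and 4 of 10 members were, Txnrd1 stood at 196, 216 and 252 CPM against 371 and 436 CPM in WT (log2 -0.86 ± 0.15, adjusted p = 0.00151). Nfe2l2 stood at 390, 478 and 427 CPM against 638 and 566 CPM (-0.48 ± 0.13, adjusted p = 0.0171). Both genes were without overlap, and Txnrd1 stayed called without each library in turn while Nfe2l2 gave -0.39 (0.0815) without MCAO/R + WT replicate 1. Gclm (49.0, 66.6 and 76.9 against 48.7 and 37.0 CPM) and Nqo1 (2.16, 1.41 and 1.67 against 0.649 and 0.597 CPM) were higher instead, by 0.59 ± 0.20 (adjusted p = 0.0470) and 1.41 ± 0.33 (0.00974). With the choroid plexus profile subtracted Gclm gave 0.61 (0.0511) and Nqo1 0.79 (0.205). Nqo1 also ended without MCAO/R + WT replicate 2 (1.35, 0.0759), and Gclm without any 1 of 7 libraries (0.41 to 0.60), with the haemoglobin-rich profile subtracted (0.56), under the erythroid subtraction (1.30) and with thinning (0.65). Within cluster 0, which held nearly all microglia of both groups, Txnrd1 was called (-0.84 ± 0.17, adjusted p = 0.00505), and Nfe2l2 gave the same size but no call (-0.48 ± 0.17).

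In endothelial cells after MCAO/R, where 13% of all genes tested were called lower, Gclc stood at 58.5, 112 and 89.1 CPM in Lrg1-/- mice against 195 and 165 CPM in WT (log2 -1.04 ± 0.20, adjusted p = 0.00252) and Nfe2l2 at 112, 145 and 126 CPM against 209 and 177 CPM (-0.59 ± 0.12, adjusted p = 0.00287). The groups did not overlap for either gene, and within cluster 4 the differences were -1.05 ± 0.22 and -0.56 ± 0.12, both called. The Gclc call held without each library in turn, and that of Nfe2l2 ended without MCAO/R + WT replicate 1 (-0.45, adjusted p = 0.0503). In border-associated macrophages Txnrd1 stood at 157 and 156 CPM against 285 and 260 CPM (-0.80 ± 0.21, adjusted p = 0.0256) and Nfe2l2 at 294 and 281 CPM against 408 and 520 CPM (-0.68 ± 0.21, adjusted p = 0.0459). Txnrd1 ended there without either MCAO/R + Lrg1-/- library (-0.82 and -0.81), and Nfe2l2 without any 1 of 6 libraries (-0.52 to -0.73). All 5 calls of Nfe2l2 and Txnrd1 in the 3 types and that of Gclc in endothelial cells stayed with the choroid plexus or the haemoglobin-rich profile subtracted. The haemoglobin-rich profile held 20.4 CPM of Nfe2l2, 7.79 of Txnrd1 and 9.35 of Gclc beside 834498 CPM of haemoglobin. Scaled to haemoglobin it removes little of these genes, so it could hardly change their calls. The part of carried RNA in these differences was not tested. With each library's own erythroid profile subtracted, Nfe2l2 and Txnrd1 stayed called in microglia. They ended in border-associated macrophages, at -0.92 (adjusted p = 0.0859) and -1.01 (0.0737), and endothelial Nfe2l2 gave 0.53 and Gclc 0.09, neither called. That endothelial fit called 0 of 16223 genes. The WT erythroid clusters held a median of 231 CPM of haemoglobin and WT endothelial cells 1314 CPM. The turned signs are therefore no measure of red cell RNA. The calls in border-associated macrophages also ended with thinning (Nfe2l2 -0.45, Txnrd1 -1.19) and at least 50 cells (-0.65 and -0.79), that of Nfe2l2 with a limit of 10% mitochondrial UMIs (-0.67) and that of Txnrd1 with cells named one by one (-0.90).

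The response to surgery differed between genotypes in 1 of 106 tests of members, against 1.75% of all genes and types, and 14 of the 106 had an unadjusted p below 0.05. The share among the members was no larger than that over all genes. The 1 call was Prdx1 in oligodendrocytes, where 1.72% of all genes tested were called. Prdx1 fell there after MCAO/R in WT mice, and stood at 722, 610 and 623 CPM in sham + Lrg1-/- and at 599, 697 and 689 CPM in MCAO/R + Lrg1-/-, so the responses differed by 0.97 ± 0.16 on the log2 scale (adjusted p = 0.0143). The difference was positive for Prdx1 in all 11 types tested (0.29 to 1.06, median 0.64), which share mice and are not independent. The call ended without MCAO/R + WT replicate 2 (0.88, adjusted p = 0.0974), sham + Lrg1-/- replicate 2 (0.87, 0.0597) or sham + WT replicate 3 (0.87, 0.0586). Within cluster 7 the difference was 1.0 ± 0.15 (adjusted p = 0.00163), and within cluster 6 it was 1.31 ± 0.32 and not called. The call ended under the erythroid subtraction (1.90, adjusted p = 0.875) and with thinning (0.89, 0.118).

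The other genes of the pathway were followed as 65 genes in 7 lists. In WT mice MCAO/R raised them in 84 and lowered them in 28 of 710 tests, against 4.52% and 4.39% of all genes and types, and in Lrg1-/- mice in 84 and 16 of 743, against 5.07% and 4.11%. Glutathione synthesis and recycling genes were called higher in 13 and lower in 3 of 73 tests in WT, the thioredoxin system in 15 and 1 of 93, regulators in 11 and 1 of 107, other target genes in 21 and 7 of 169, peroxiredoxins and other glutathione peroxidases in 10 and 2 of 85, superoxide, catalase and NADPH genes in 7 and 5 of 73, and glutathione S-transferases in 7 and 9 of 110. Hmox1, which breaks down haem, rose in 5 of 12 types in WT mice (median log2 1.49) and in 6 of 13 in Lrg1-/- mice (2.41). In microglia it rose by 1.90 ± 0.47 (adjusted p = 0.0114) and 2.41 ± 0.46 (0.00122), from 72.3 to 270 CPM and from 71.6 to 375 CPM. Under the erythroid subtraction Hmox1 was called in 1 type in WT and in no type in Lrg1-/- mice (medians 0.96 and 2.15), at 0.56 (adjusted p = 0.897) and 2.41 (0.340) in microglia. Gsr, which returns oxidised glutathione to its reduced form, rose in microglia from 21.8 to 55.1 CPM in WT mice (1.34 ± 0.20, adjusted p = 3.99e-04) and from 36.0 to 72.8 CPM in Lrg1-/- mice (1.04 ± 0.19, adjusted p = 9.66e-04). Under that subtraction the Gsr call of microglia ended in WT (0.77, adjusted p = 0.0689) and stayed in Lrg1-/- mice (1.03, 0.00955). Gpx3, the secreted glutathione peroxidase, rose in 5 of 7 types in WT (median 2.60), from 0.258 to 6.16 CPM in endothelial cells (4.54 ± 0.36, adjusted p = 3.59e-06). Gpx3 was called under the erythroid subtraction in 2 of 7 types in WT, endothelial cells not among them (8.40, adjusted p = 0.921), and in no type of 6 in Lrg1-/- mice, with medians of 4.04 and 2.74. Bach1, a repressor that competes with Nrf2 for its sites, was lower in endothelial cells, at -0.80 ± 0.09 in WT (adjusted p = 6.38e-05) and -0.72 ± 0.08 in Lrg1-/- mice (1.73e-04). In WT oligodendrocytes Bach1 was called higher (0.69 ± 0.13, adjusted p = 0.00211), and in Lrg1-/- mice it was also called lower in microglia (-0.51 ± 0.12) and border-associated macrophages (-0.97 ± 0.26). Keap1, the Nrf2 inhibitor, was called in Lrg1-/- microglia (0.48 ± 0.13, adjusted p = 0.0113) and in no other type or contrast, and in WT microglia it gave 0.35 ± 0.14 (adjusted p = 0.0875). The Keap1 call and both endothelial Bach1 calls ended under the erythroid subtraction (0.48, -0.35 and -0.73).

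Between genotypes after MCAO/R, 128 of 710 tests of these lists were called higher and 46 lower in Lrg1-/- mice, against 8.30% and 7.18% of all genes and types, with a median log2 difference of 0.27. Other target genes were called in 40 and 10 of 169 tests, peroxiredoxins and glutathione peroxidases in 23 and 5 of 85, the thioredoxin system in 22 and 10 of 93, S-transferases in 22 and 3 of 110, superoxide, catalase and NADPH genes in 10 and 0 of 73, and glutathione synthesis in 6 and 2 of 73. Regulators went mainly the other way, with 5 higher and 16 lower of 107. Blvrb, an enzyme of haem breakdown, was higher in 8 of 12 types (median 1.01), Taldo1, of the pentose phosphate pathway, in 7 (0.98), and Prdx2, an abundant red cell peroxiredoxin, in 6 (0.85). With the haemoglobin-rich profile subtracted these were 7, 7 and 6 types, and with each library's own erythroid profile subtracted Prdx2 was called in 1 type and neither Blvrb nor Taldo1 in any, while the median log2 differences were larger, at 1.12, 1.45 and 2.08. Txnip, the thioredoxin inhibitor, was lower in 8 of 12 types (median -1.12), from 680 to 206 CPM in endothelial cells (-1.73 ± 0.14, adjusted p = 1.30e-05). Sqstm1, an autophagy receptor that binds Keap1, was lower in 6 (median -0.75), from 1757 to 649 CPM in microglia (-1.44 ± 0.16, adjusted p = 1.03e-04). Under the erythroid subtraction Txnip was called lower in 2 types and Sqstm1 in 3, with the microglial Sqstm1 call among them (-1.62, adjusted p = 7.58e-04), and the medians were -1.15 and -0.53. Endothelial Txnip then gave -0.68 ± 3.47 (adjusted p = 0.986), in a fit that called 0 of 16223 genes.

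After sham surgery 89 of 703 tests of the lists were called higher and 23 lower in Lrg1-/- mice, against 6.13% and 5.75% of all genes and types (median log2 0.17). Sod1, the cytosolic superoxide dismutase, was higher in 8 of 12 types (median 0.93), and Prdx5 in 6 of 12 (0.63). Txnip was lower in 4 types and Sqstm1 in 3, among them endothelial cells for both, at -0.63 ± 0.13 (adjusted p = 0.00497) for Txnip and -0.77 ± 0.12 (0.00144) for Sqstm1. Under the erythroid subtraction Sod1 was called in 4 types, and Prdx5, Txnip and Sqstm1 in 1 each. The medians were then 1.12 for Sod1, 1.69 for Prdx5 and -0.53 for Sqstm1, and that of Txnip turned to 0.39. In endothelial cells both signs turned, with Txnip at 1.49 ± 3.21 and Sqstm1 at 0.74 ± 3.27 (adjusted p = 0.998 each, edgeR). That fit called 0 of 16223 genes. The response to surgery differed between genotypes in 19 of 662 tests, against 1.75% of all genes and types, 12 of them in the positive direction. Nnt, the mitochondrial transhydrogenase that makes NADPH and a gene in which C57BL/6 substrains are known to differ, stood over all cell types at 2.25 and 2.13 CPM in the sham and MCAO/R groups of WT mice and at 1.12 and 1.01 CPM in those of Lrg1-/- mice, with no test over these sums.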

How the data were processed

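The authors deposited 1 filtered gene-by-barcode matrix of raw UMI counts per library. Per the file headers these counts were made with Cell Ranger 7.0.1, and the submitters' processing notes name Cell Ranger, STAR and mm10. Counts were not normalised by the authors. Here, cells with more than 500 genes, more than 1000 UMIs and under 25% mitochondrial UMIs were kept, the 6% of cells with the highest simulated-doublet score per library were removed, and the rest were clustered (scanpy 1.11.5, 2000 variable genes, 15 principal components, 3 neighbours per library, Leiden resolution 1) and named from marker lists. UMIs were summed per library and cell type where a library had at least 20 cells. Each cell type was fitted once over all 4 groups with edgeR 4.0.16 (TMM, low-count filter, quasi-likelihood test), with Benjamini-Hochberg adjustment over all genes tested in the type, and the test was checked on simulated counts. The simulation covered microglia, endothelial cells and oligodendrocytes in the comparison of genotypes after MCAO/R. It held no difference in carried RNA between groups, so it cannot show how such RNA affects the calls. The standard error is the log2 fold change divided by the square root of F. A library is 1 mouse, so each test set a difference against the spread between mice within groups. That spread was pooled over all groups with libraries of the type and moderated across genes.

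The 10 members and the lists of other redox genes were chosen with earlier results of these data known. All members are named. The other redox genes named were drawn from those called in one direction in the most cell types, at most 5 per direction and contrast. Keap1, Bach1, Hmox1, Gsr, Prdx2 and Nnt were added. Not all genes so ranked were printed. Left out for MCAO/R in WT mice were Fth1, Slc3a2 and Txnip, higher in 4 types each. Mgst3, Gsta4, Cbr1, Cat and Gstm7, lower in 2 types each, were also left out. Between genotypes after MCAO/R, Ftl1 and Sod1 (higher in 6 each), Osgin1 (lower in 4), Gpx3 (3) and Msrb1 (2) were, and others elsewhere. Alternatives were DESeq2 1.42.0, no filter on low counts, a limit of 10% mitochondrial UMIs, doublets kept, at least 50 cells, cells named one by one, thinning to 1000 UMIs per cell, the replicate number as a block, subtraction of each library's erythroid profile, and each library left out in turn. Subtraction of a profile of cells with over 80% haemoglobin UMIs, subtraction of each library's choroid plexus profile, and fits within 1 cluster were added after the data were seen. The assay counts 3′ ends, so levels are compared between cell types and groups, not between genes.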

Additional observations from a re-analysis of the deposited data

Results flagged for a closer look

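Prdx1 in oligodendrocytes was the one result marked for a closer look, because its response to MCAO/R differed between genotypes by the test of that difference itself. It was 1 call among 106 tests of members, against 1.75% of all genes and types and 1.72% of all genes in oligodendrocytes. Over all types, differences in response were thus no more frequent among the members than among all genes. The responses differed by 0.97 ± 0.16 (SE) on the log2 scale (adjusted p = 0.0143, edgeR). Prdx1 was lower after MCAO/R in WT oligodendrocytes (log2 -0.95), while in Lrg1-/- mice the sham and MCAO/R libraries overlapped. The oligodendrocytes of MCAO/R + WT lay mostly in cluster 7 (85.7%) and those of MCAO/R + Lrg1-/- mostly in cluster 6 (76.8%), and haemoglobin genes summed to a mean of 20 CPM in the former and 22752 CPM in the latter. Within cluster 7 alone the difference was 1.0 ± 0.15 (adjusted p = 0.00163), and within cluster 6 alone 1.31 ± 0.32, not called. The call ended with each library's erythroid profile subtracted (1.90, adjusted p = 0.875) and with cells thinned to 1000 UMIs (0.89, 0.118). It also ended under the replicate block and without any 1 of 3 libraries. Over all single omissions the difference was 0.87 to 1.01.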

How the results depend on the processing

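Counts of member calls are given in the order genotypes after MCAO/R, genotypes after sham, MCAO/R in WT, MCAO/R in Lrg1-/- and difference in response, where the values reported are 26, 18, 31, 19 and 1. With each library's erythroid profile subtracted they were 9, 3, 8, 4 and 0. The WT erythroid clusters held 44.4 to 105807 CPM of haemoglobin RNA, and 22 of 49 fits then called 0 genes of any kind. For the other alternatives no share of all genes called is given. A general loss of calls therefore cannot be told apart from a loss particular to the members. The replicate block, which pairs libraries by their number, gave 17, 3 and 15 in the first 3 and 0 in the last, where Prdx1 in oligodendrocytes gave 0.94 (adjusted p = 0.0869), and left Hmox1 called in 2 types for MCAO/R in WT. The labels do not say whether equal replicate numbers mark pairs. Of 13 same-numbered pairs per type, 0 in microglia and endothelial cells, 1 in oligodendrocytes and 2 in choroid plexus had deviations correlated above 0.1. Of 32 differently numbered pairs per type, 2 to 6 did. With 2 or 3 libraries per group these values cannot settle whether libraries were paired. Thinning to 1000 UMIs per cell gave 15, 4, 18 and 10. Subtracting the choroid plexus profile gave 10 after sham. Without a filter on low counts there were 37 calls for MCAO/R in Lrg1-/- and 4 differences in response, of which DESeq2 made 3. For other redox genes (174, 112, 112 and 100 reported), erythroid subtraction gave 36, 28, 22 and 14, thinning 64, 34, 63 and 62, the replicate block 45 after sham and 66 for MCAO/R in WT, and no filter 155 for MCAO/R in Lrg1-/-. Leaving out 1 library at a time gave 14 to 27, 4 to 25, 14 to 32, 12 to 27 and 0 to 2 member calls, and 74 to 186, 47 to 131, 74 to 130 and 63 to 121 of other redox genes. The lowest member counts came without MCAO/R + WT replicate 2, sham + WT replicate 2, MCAO/R + WT replicate 1, MCAO/R + Lrg1-/- replicate 2 and, for the difference in response, sham + Lrg1-/- replicate 2 or sham + WT replicate 3. The lowest counts of other redox genes came without the same libraries, except for MCAO/R in Lrg1-/- (sham + Lrg1-/- replicate 2). Other omissions that moved the sham count by over 1.5 times were sham + WT replicate 1 (9) or 3 (5) and sham + Lrg1-/- replicate 2 (11) or 5 (7). Where 1 MCAO/R + WT library was left out, the other was assumed to vary like the remaining groups.

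Of 95 member calls, 10 were made under all 22 alternatives other than the fits within 1 cluster: Gpx1, Nfe2l2, Slc7a11 and Srxn1 in microglia for MCAO/R in both genotypes, and Txnrd1 in microglia and Gclm in oligodendrocytes between genotypes after MCAO/R. The erythroid subtraction is among these alternatives and left 0 genes called in 22 of 49 fits. Calls in those fits, all endothelial calls among them, could therefore not be among the 10. Within single clusters 3 of the 10 were called in each cluster fitted (Slc7a11 in WT and Gpx1 in Lrg1-/- microglia, and Txnrd1) and 3 in none (Gpx1 in WT and Srxn1 in Lrg1-/- microglia, and Gclm). DESeq2 kept 94 of the 95, subtraction of the haemoglobin-rich profile 93, doublets kept 92, no filter 91, a limit of 10% mitochondrial UMIs 85, at least 50 cells 85 (of 94), the choroid plexus profile 79, naming cell by cell 73, the replicate block 47, thinning 42 (of 88) and the erythroid profile 24. With the erythroid profile subtracted the sign turned for Prdx1 in WT microglia (-0.04), Nqo1 (-0.40) and Gpx4 (0.30) in WT endothelial cells, and Nfe2l2 (0.53) and Gclc (0.09) between genotypes in endothelial cells. Srxn1 in WT oligodendrocytes turned without MCAO/R + WT replicate 1 (-0.06), and leaving out 1 library at a time gave -0.06 to 3.94. Within 1 cluster the sign turned for Nfe2l2 (-0.11) and Slc7a11 (-0.04) in cluster 2 and Gpx4 (-0.19) in cluster 0 of Lrg1-/- microglia, for Nqo1 (-0.95) and Gpx1 (-0.28) in cluster 5 of WT endothelial cells, and for Gpx1 (-0.28) in cluster 6 of WT oligodendrocytes. The cause of these changes was not tested.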
